A study of Mus musculus with 16 samples.

Results

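The messenger RNAs of 41 mouse genes that make fatty acids, glycerolipids and cholesterol were examined in the liver and kidney of male C57BL/6J mice after long-term circadian misalignment. The genes were chosen by symbol from the 32989 genes of the deposited expression tables, and all 41 were found in both organs, each as a single entry. They comprised 13 genes of fatty acid synthesis, 7 of glycerolipid synthesis, 14 of sterol synthesis, 6 regulators of these pathways, and Cyp46a1, which encodes the cholesterol 24-hydroxylase that removes cholesterol by oxidation. LD-conditioned mice lived under a constant light–dark cycle with light from 8:00 to 20:00, and for ADV-conditioned mice this cycle was advanced by 8 h every 4 days. All mice were wild type, were kept under their condition for 85 weeks and were 97 weeks old at sampling. Liver and kidney came from the same animals, 4 LD-conditioned (L63, L65, L86 and L104 below) and 4 ADV-conditioned (A75, A91, A94 and A115 below), with 1 poly(A)-selected library per mouse and organ. The study chose mice without apparent weakness or injury, so that they stand for survivors of the condition at this age.

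Fatty acids are built from cytosolic acetyl-CoA. Acly makes acetyl-CoA from citrate, Acaca carboxylates it to malonyl-CoA, Fasn joins the units to palmitate, and elongases and desaturases such as Elovl6, Scd1 and Fads2 shape the product, which Gpam, Agpat2, the lipins and Dgat2 place on glycerol. Cholesterol is built from the same acetyl-CoA by way of Hmgcs1, mevalonate, farnesyl diphosphate and squalene. Both pathways answer to the sterol regulatory element binding proteins, encoded by Srebf1, which is known mainly for lipogenic targets, and Srebf2, which is known mainly for sterol targets. Scap escorts these proteins to the Golgi for activation, Insig1 and Insig2 hold them back in the endoplasmic reticulum, and Mlxipl encodes ChREBP, which answers to carbohydrate. The liver is the organ in which both pathways are best known, and many of their genes follow feeding and the daily cycle.

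Values were FPKM, fragments relative to the exon length of the gene and to the total of the library, which allows levels to be compared between genes. Library totals lay between 22.7 and 26.3 M (mega) fragments in the liver and between 17.1 and 19.7 M fragments in the kidney. Differences between conditions were estimated with limma on log2(FPKM + 0.1), so that changes of low genes are understated, and p-values were adjusted over all genes tested by the Benjamini-Hochberg method. Across genes, the kidney library of A115 stood apart, with 33.8% of its fragments on mitochondrial genes against 15.7% to 18.0% in the LD kidneys and 9.43% to 13.1% in the other ADV kidneys, and results in the kidney are therefore given with and without it. The liver library of A94 carried a sum of 65.1 FPKM over 6 lymphocyte markers, against 2.07 to 4.51 FPKM in the other livers, and its kidney library one of 70.2 FPKM, against 3.46 to 7.49 FPKM in the other kidneys. Hepatocyte markers summed to between 57080 and 70520 FPKM in the livers, and markers of the proximal tubule, most of it from Kap, to between 18380 and 46280 FPKM in the kidneys but to at most 0.119 FPKM in the livers. In such bulk samples, fewer cells of a type and less RNA per cell cannot be told apart. Nothing in the sources ties the libraries to the 2 sequencing providers named for the series, so that provider and condition cannot be told apart.

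The promoters show a feature that the choice of genes did not use. RefSeq promoters of the GRCm38.p6 build, windows of 1 fixed length that lie mostly before the start site, were at hand for 33 of the 41 genes and for 27025 genes in all. A gene counted as matched when any of its promoters matched, and the 27025 were taken whether or not they are expressed in these organs. CCAAT, searched on both strands and thus also as ATTGG, was in a promoter of 27 of the 33 genes, or 81.8%, against 41.1% of all genes. It was in all 11 sterol synthesis genes that had a promoter, in 7 of 10 fatty acid synthesis genes and in 5 of 6 regulators. The box is bound by NF-Y, a factor known to act beside the sterol regulatory element binding proteins. The E-box CACGTG, to which clock proteins and ChREBP can bind, was in 7 of the 33 genes, or 21.2%, against 8.09% of all genes. These 7 were Dhcr7, Elovl5, Insig1, Lpin2, Mlxipl, Sc5d and Scap. The sterol regulatory element, searched on both strands in 1 consensus form, was in 0 of the 33 genes and in 0.27% of all genes, which says only that this form is not in these windows. The 120 bases before the start site are printed here, 5′ to 3′ on the coding strand, for 4 sterol enzymes described below and for Insig1, with the matches to CCAAT or the E-box in capitals. Their positions are chr13:119690231-119690350 (plus strand) for Hmgcs1, chr5:114444149-114444268 (plus strand) for Mvk, chr8:122443423-122443542 (minus strand) for Mvd, chr13:8885486-8885605 (plus strand) for Idi1 and chr5:28071292-28071411 (plus strand) for Insig1.
Hmgcs1: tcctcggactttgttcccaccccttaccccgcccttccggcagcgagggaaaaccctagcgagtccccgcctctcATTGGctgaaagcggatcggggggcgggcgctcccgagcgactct
Mvk: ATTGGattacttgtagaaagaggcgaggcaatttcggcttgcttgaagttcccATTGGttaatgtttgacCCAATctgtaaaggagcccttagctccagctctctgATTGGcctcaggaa
Mvd: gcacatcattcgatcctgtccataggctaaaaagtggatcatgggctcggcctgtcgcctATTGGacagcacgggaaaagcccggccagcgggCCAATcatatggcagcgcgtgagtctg
Idi1: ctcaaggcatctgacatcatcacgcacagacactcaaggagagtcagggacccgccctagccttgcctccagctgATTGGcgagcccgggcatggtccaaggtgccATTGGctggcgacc
Insig1: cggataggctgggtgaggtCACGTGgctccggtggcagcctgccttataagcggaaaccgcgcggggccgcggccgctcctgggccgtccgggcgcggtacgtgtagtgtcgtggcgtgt
Within these 120 bases Mvk carries 4 CCAAT matches, Mvd and Idi1 2 each and Hmgcs1 1, whereas Insig1 carries an E-box and no CCAAT match. A match describes the letters only, and no measurement of binding was made.

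The levels in LD-conditioned mice set the scale for everything that follows. In the liver the desaturase Scd1 had the highest mean level of the 41 genes, at 722, 1324, 2090.4 and 828 FPKM in L63, L65, L86 and L104. Thrsp, a lipogenic protein also known as Spot 14, followed at 574 ± 143 FPKM (SD, n = 4), Fads2 at 234 ± 20.3 FPKM and Dgat2, which completes triglycerides, at 216 ± 9.90 FPKM. The lowest were Pnpla3, a lipase-like protein of lipid droplets, at 0.173 ± 0.0898 FPKM, Scd2 at 1.15 ± 0.224 FPKM and Cyp46a1 at 1.87 ± 0.0818 FPKM. The kidney had another order. There Me1, the malic enzyme that supplies NADPH, and Hmgcs1, the first committed enzyme on the way to mevalonate, led with 170.5 ± 15.6 and 155 ± 18.4 FPKM, and Fads2 followed at 56.0 ± 5.46 FPKM. The ranges over the 4 mice overlapped between Scd1 and Thrsp and between Fads2 and Dgat2 in the liver, and between Me1 and Hmgcs1 in the kidney. Within each LD mouse Scd1 was above Thrsp and Me1 above Hmgcs1, whereas Fads2 was below Dgat2 in L65 and above it in the other LD mice.

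Between the organs of LD-conditioned mice, 27 of the 41 genes were higher in the liver and 4 were higher in the kidney at an adjusted p under 0.05. Among the 14968 genes high enough to be tested in at least 1 organ, 66.6% passed this threshold. The liver had the higher level in 11.1% of the 14968 and the kidney in 55.5%. The largest differences towards the liver were those of Thrsp with a log2 difference of 7.46 (SE 0.50), Scd1 with 5.46 (SE 0.53), Tm7sf2, a sterol C14-reductase, with 4.32 (SE 0.79), Pklr, the liver-type pyruvate kinase, with 3.51 (SE 0.39) and Fdps, the farnesyl diphosphate synthase, with 3.46 (SE 0.49). Adjusted p-values of these 5 lay between 4.47e-09 and 0.000197 in limma. The genes higher in the kidney were Scd2 with −4.08 (SE 0.36), Hmgcs1 with −2.80 (SE 0.27), Me1 with −1.90 (SE 0.26) and the mevalonate diphosphate decarboxylase Mvd with −1.62 (SE 0.54). Mvd did not pass when L63, L86 or L104 was left out, with log2 differences of −1.49 to −1.61. Of the 13 fatty acid synthesis genes 10 were higher in the liver and 2 in the kidney, and of the 14 sterol synthesis genes 7 and 2, while 5 sterol synthesis genes did not pass. With scaling by the median ratio, which moved the median of all genes from −0.80 to −0.05, 33 genes were higher in the liver and 3 in the kidney, against 24.7% and 30.2% of all genes, and Mvd no longer passed (adjusted p = 0.116). The median of the sterol synthesis genes was then 1.62 in place of 0.82.

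Paralogs divided between the organs in some pairs and not in others. Scd1 was 47.3-fold higher in the liver of LD-conditioned mice and Scd2 18.3-fold higher in the kidney, so that the main stearoyl-CoA desaturase message of the liver was Scd1, with 1241 FPKM against 1.15 FPKM of Scd2, and both were at a like level in the kidney, with 26.2 and 21.0 FPKM. These 2 genes share sequence and lie within the same stretch of chromosome 19, at 44293676-44306864 for Scd2 and 44394450-44407709 for Scd1 of mm10. Reads of low mapping quality had been removed by the study, which can take away reads that fit both genes, so that the low Scd2 value beside a high Scd1 value in the liver is uncertain. Insig1 was 10.8-fold and Insig2 2.12-fold higher in the liver (adjusted p = 9.8e-08 and 0.00683). Srebf1 was 6.33-fold higher in the liver (adjusted p = 0.0010), whereas Srebf2 had a mean of 6.31 FPKM in the liver and 8.49 FPKM in the kidney, with a log2 difference of −0.42 (95% interval −1.48 to 0.63, adjusted p = 0.464, and 0.0408 when the libraries of A115 were left out of the shared fit). With scaling by the median ratio this difference had the opposite sign, 0.38 (adjusted p = 0.422). Of the acetyl-CoA carboxylases, Acaca and its mitochondrial counterpart Acacb were 4.30- and 3.80-fold higher in the liver. Dgat2 was 4.79-fold higher in the liver while Dgat1, its unrelated counterpart, was at 8.86 and 10.04 FPKM. The lipins Lpin1 and Lpin2, phosphatidate phosphatases, were 3.20- and 5.05-fold higher in the liver, Fads1 and Fads2 6.87- and 4.18-fold, and the elongases Elovl5 and Elovl6 2.32- and 10.1-fold. In ADV-conditioned mice 27 of the 41 genes were again higher in the liver, and 3, Scd2, Hmgcs1 and Me1, in the kidney. Thrsp with a log2 difference of 6.96, Scd1 with 5.001, Tm7sf2 with 4.47, Agpat2 with 3.32 and Insig1 with 3.09 led towards the liver, and Scd2 with −3.21, Me1 with −2.09 and Hmgcs1 with −1.57 towards the kidney. With scaling by the median ratio Me1 was at −1.09 in LD and −1.35 in ADV mice, and Hmgcs1 at −0.84 in ADV mice. The background there was 62.9% of genes at an adjusted p under 0.05, 11.2% higher in the liver and 51.7% in the kidney. Without A115, 28 of the 41 genes were higher in the liver and 7 in the kidney (background 78.1%, of which 11.3% higher in the liver and 66.8% in the kidney), Srebf2, Dgat1, Mvd and Scap being the added genes in the kidney. With scaling by the median ratio and all mice Srebf2, Dgat1 and Scap had the opposite sign, with log2 differences of 0.37, 0.64 and 1.02 towards the liver in ADV mice, so that their direction depended on the scaling. Without A115, and with FPKM values scaled by the library totals, Tm7sf2 had a log2 difference of 3.31 and Agpat2 one of 2.41 in ADV mice.

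**Figure D1:**
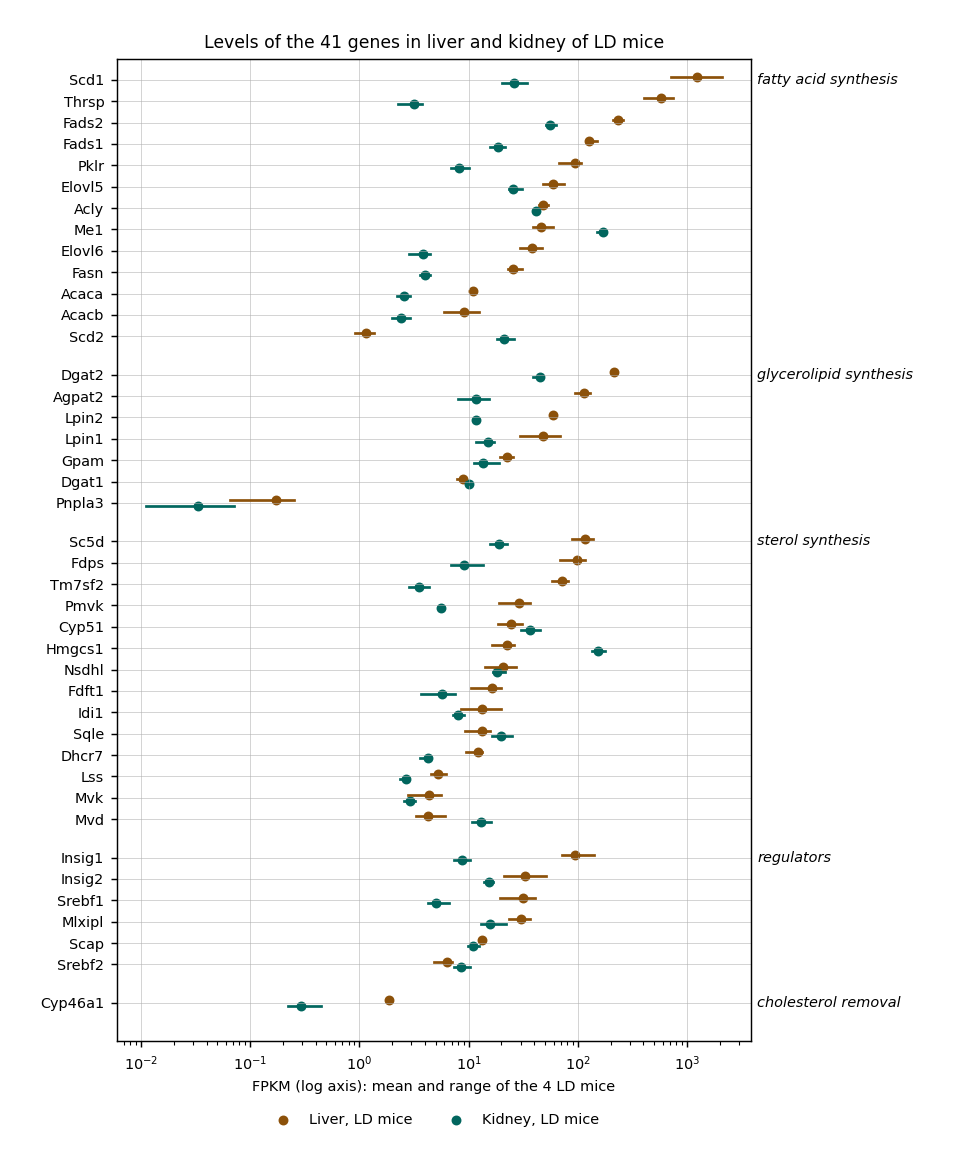
Mean FPKM (dots, log axis) and range over the 4 LD-conditioned mice (bars) of the 41 genes in liver (brown) and kidney (green), by gene group. Most genes lie further right in the liver, Scd1 at 1241 against 26.2 FPKM, whereas 8 lie further right in the kidney, of which Scd2, Me1, Hmgcs1 and Mvd passed the adjusted threshold and Srebf2, Dgat1, Sqle and Cyp51 did not.

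In the liver, 11 of the 13 fatty acid synthesis genes and 5 of the 7 glycerolipid synthesis genes had lower values in ADV- than in LD-conditioned mice, Cyp46a1 was lower in every ADV-conditioned mouse and Hmgcs1 higher in every one, but 0 of the 41 genes passed the adjusted threshold in limma. Of 12835 genes tested, 0.00779% had an adjusted p under 0.05, which was 1 gene and not one of the 41. At an unadjusted p under 0.05 there were 10 of the 41, of which 8 were lower and 2 higher. Over all genes that share was 11.8%, with 3.13% lower and 8.65% higher, a balance that depended on the scaling. With scaling by the median ratio 9 of the 41 were lower and 2 higher, against 7.29% and 6.19% of all genes, and with quantile normalization again 9 and 2, against 7.77% and 4.93%. On fragments recovered from the FPKM values, limma-voom again gave 0 of the 41 at an adjusted p under 0.05 and 9 at an unadjusted one, against 0.00779% and 11.1% of all genes. The count at an unadjusted p in limma was 13 without A94, where 14.4% of all genes had such a p. Without A75 the count was 6, and it has no background, because the share of all genes in that fit is not given here. ADV- and LD-conditioned mice did not overlap in 5 of the 41 genes, in 4 with ADV lower and in 1 with ADV higher, against 8.84% of all genes, 1.89% with ADV lower and 6.94% with ADV higher. For a single gene the exact two-sided permutation test over the 70 assignments of 4 mice to each condition cannot give less than 0.029. The p-values measure the spread between these mice only. Which mice shared a cage is not given in the sources used here.

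Cyp46a1 had the smallest unadjusted p of the 41 genes (1.5e-04). The gene lies on chromosome 12 at 108334381-108362234 of mm10 on the plus strand, and is best known for cholesterol removal from neurons. It was at 1.97, 1.81, 1.90 and 1.80 FPKM in L63, L65, L86 and L104 and at 0.630, 1.12, 0.554 and 0.728 FPKM in A75, A91, A94 and A115. The 4 LD livers lay within a narrow band, and each ADV-conditioned liver was below it. The log2 difference was −1.24 (SE 0.20) with an adjusted p of 0.21 in limma, and −0.72 when 1 in place of 0.1 was added to each FPKM value before taking logs. The exact permutation test of this gene alone, which is not adjusted over genes, gave 0.0286, the smallest value it can give. Without A91 the log2 difference was −1.42 and the adjusted p 0.0274. Of 4 neuron markers Snap25 was at 0 in all livers, and the 4 summed to between 0.359 and 0.446 FPKM in LD livers and between 0.262 and 0.818 FPKM in ADV livers.

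Of the 13 fatty acid synthesis genes 5 had an unadjusted p under 0.05, Fads2, Fads1, Elovl6 and Pklr with lower and Scd2 with higher values in ADV livers. Fads2, the delta-6 desaturase, was at 259, 209.7, 236 and 231 FPKM in L63, L65, L86 and L104 and at 124, 178, 119 and 80.6 FPKM in A75, A91, A94 and A115, on chromosome 19 at 10064164-10101503. All ADV livers were below all LD livers, with a log2 difference of −0.95 (SE 0.21, adjusted p = 0.269). Its neighbour Fads1, the delta-5 desaturase, was also lower without overlap, at 119 to 149 FPKM in LD and 95.5 to 116 FPKM in ADV livers, but by a smaller log2 difference of −0.25 (SE 0.11). Elovl6, which lengthens palmitate, was at 47.4, 36.7, 29.7 and 39.7 FPKM in the LD livers and at 13.2, 31.1, 24.8 and 9.82 FPKM in A75, A91, A94 and A115. A91 overlapped with the LD livers, and A75 and A115 were far below them. The log2 difference was −1.08 (SE 0.34, adjusted p = 0.326). In Pklr, A75 and A115 were again far below the LD livers, with 31.3, 73.7, 80.1 and 31.6 FPKM in A75, A91, A94 and A115 against 67.5 to 108 FPKM in LD and a log2 difference of −0.91 (SE 0.33, adjusted p = 0.375). Scd2 was the exception with a higher level, at 2.80, 1.29, 6.18 and 2.27 FPKM in A75, A91, A94 and A115 and 0.918 to 1.38 FPKM in LD (log2 difference 1.17, SE 0.39, adjusted p = 0.36, and 0.78 without A94).

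The other 8 fatty acid synthesis genes overlapped between the conditions and had no unadjusted p under 0.05. Fasn was at 23.2, 31.0, 22.8 and 25.0 FPKM in LD livers and at 23.4, 45.5, 44.5 and 17.9 FPKM in A75, A91, A94 and A115, so that the ADV livers lay on both sides of the LD livers, with a log2 difference of 0.26 (95% interval −0.39 to 0.91). Acaca was at 11.04 ± 0.543 FPKM in LD and 9.65 ± 2.003 FPKM in ADV livers (SD, n = 4). Its log2 difference was −0.22, with a 95% interval of −0.55 to 0.12. Acly was at 48.5 ± 4.46 and 46.9 ± 18.6 FPKM, and Acacb at 9.15 ± 2.80 and 6.82 ± 1.95 FPKM. For Scd1 the 2 conditions could not be separated, because A75 and A91 were at 1718 and 2416 FPKM and A94 and A115 at 408 and 349 FPKM, while the LD livers spread from 722 to 2090.4 FPKM. Me1 was at 59.4 FPKM in A91 and at 21.9 to 27.8 FPKM in the other ADV livers, against 38.7 to 59.2 FPKM in LD. Elovl5 was at 59.7 ± 12.4 FPKM in LD and 59.0 ± 20.3 FPKM in ADV, and Thrsp was at 180.3, 989, 558 and 177 FPKM in A75, A91, A94 and A115 against 401 to 746 FPKM in LD. As a group, 11 of the 13 genes had a negative log2 difference and the median was −0.37, against 0.10 over all genes tested. With scaling by the median ratio, under which the median of all genes was at 0.00, 11 of 13 were still negative and the median was −0.47. Without A115 the median was −0.20, with 9 of 13 negative and 2 lower at an unadjusted p under 0.05 in limma. In that fit 377 of all 12835 genes were lower at such a p, and 65.06% of all genes had a positive log2 difference. Over the mice left out the median of the 13 genes was −0.59 to −0.20.

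Among the glycerolipid synthesis genes the 2 lipins and Dgat1 had an unadjusted p under 0.05, each lower in ADV. Lpin2 was at 58.3, 55.3, 62.4 and 63.2 FPKM in L63, L65, L86 and L104 and at 45.6, 50.1, 36.1 and 24.6 FPKM in A75, A91, A94 and A115, without overlap, with a log2 difference of −0.66 (SE 0.20, adjusted p = 0.322). Lpin1 was at 29.3 to 69.3 FPKM in LD and at 14.8, 39.8, 34.2 and 24.7 FPKM in the ADV livers (log2 difference −0.80, SE 0.33, and −0.52 without A75), and Dgat1 was at 8.86 ± 0.717 and 7.27 ± 0.838 FPKM (log2 difference −0.28, SE 0.12). Dgat2 was at 209 to 231 FPKM in LD and at 126, 216, 195 and 174 FPKM in ADV, with a log2 difference of −0.31 (95% interval −0.66 to 0.05). Gpam, which places the first acyl chain on glycerol-3-phosphate, was at 22.7 ± 3.15 and 27.0 ± 7.61 FPKM (log2 difference 0.22, 95% interval −0.22 to 0.65), and Agpat2, which places the second, at 114 ± 16.5 and 111 ± 28.1 FPKM. Pnpla3 was near the lower end of detection in both conditions, with at most 0.531 FPKM. In all, 5 of the 7 had a negative log2 difference, with a median of −0.28, which was −0.15 without A75.

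**Figure D2:**
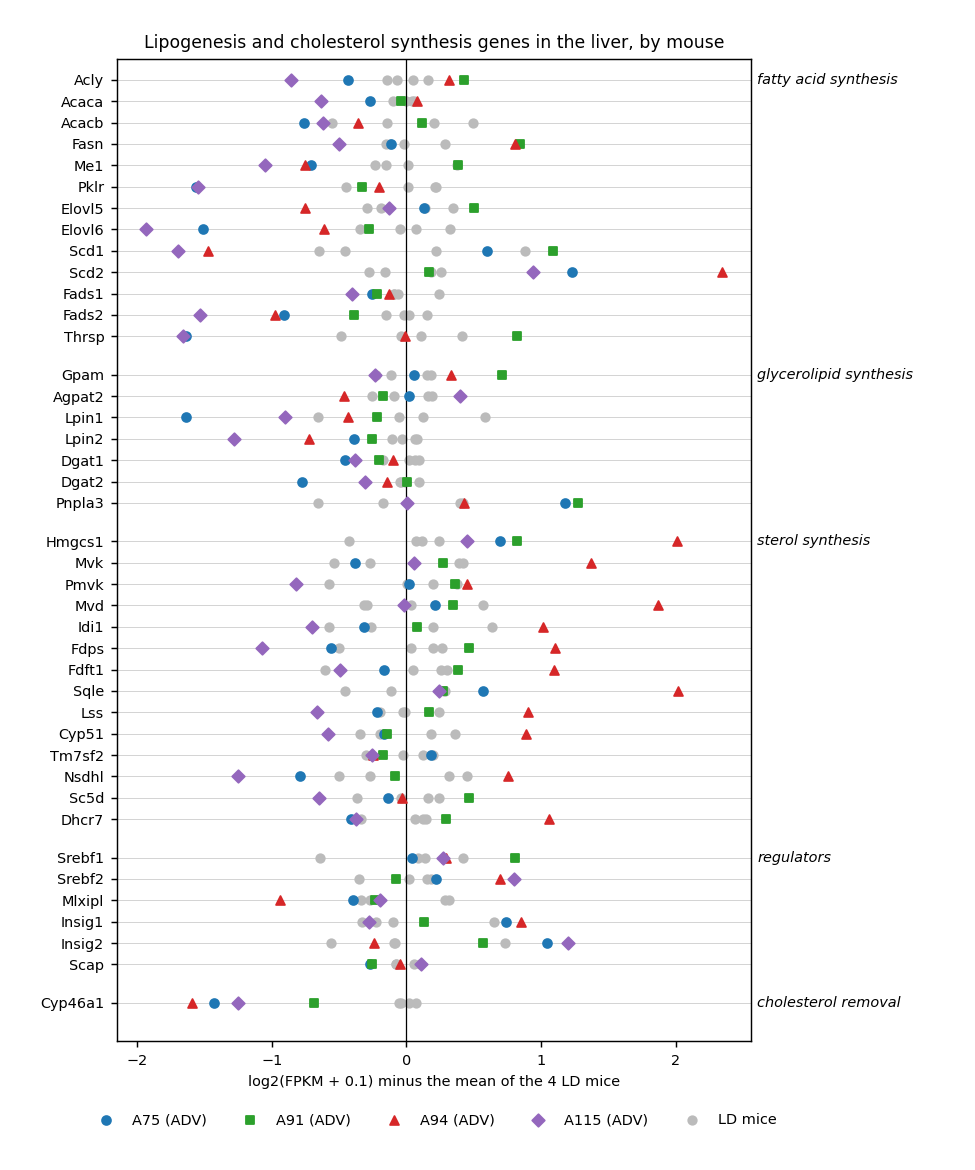
Level of each of the 41 genes in the liver of each mouse, as log2(FPKM + 0.1) minus the mean of the 4 LD-conditioned mice (grey dots LD-conditioned, coloured symbols ADV-conditioned). Cyp46a1, Fads2, Fads1 and Lpin2 lie left of all grey dots in all ADV-conditioned mice and Hmgcs1 right of them, and A94 (red triangles) lies furthest right in most sterol synthesis genes.

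Of the 14 sterol synthesis genes in the liver, 1 had an unadjusted p under 0.05. It was Hmgcs1, on chromosome 13 at 119690351-119708260, at 26.02, 23.8, 23.1 and 16.3 FPKM in L63, L65, L86 and L104 and at 35.7, 38.9, 89.0 and 30.1 FPKM in A75, A91, A94 and A115. All ADV livers were above all LD livers. The log2 difference was 0.996 (SE 0.31, adjusted p = 0.326) and 0.66 without A94. Sqle, the squalene epoxidase and a rate-limiting step of the pathway, was at 9.36 to 15.7 FPKM in LD and at 19.2, 15.6, 52.4 and 15.2 FPKM in the ADV livers, a log2 difference of 0.78 (95% interval −0.06 to 1.61) that rested largely on A94 and was 0.36 without it. Mvd, at 3.28 to 6.13 FPKM in LD, was at 15.3 FPKM in A94 and at 4.05 to 5.24 FPKM in the other ADV livers.

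A94 had the highest level of all 8 livers in 12 of the 14 sterol synthesis genes, and A115 the lowest in 7. The exceptions in A94 were Tm7sf2, at 60.4 FPKM against 58.5 to 82.3 FPKM in LD, and Sc5d, a late desaturase of the pathway, at 113 FPKM against 89.5 to 137 FPKM. In the early steps, the mevalonate kinase Mvk was at 10.9 FPKM in A94 and 2.82 to 5.59 FPKM in LD, the phosphomevalonate kinase Pmvk at 38.6 against 18.8 to 36.5 FPKM, and the isopentenyl diphosphate isomerase Idi1 at 25.9 against 8.50 to 19.9 FPKM. Further on, Fdps was at 208 against 68.3 to 116 FPKM, the squalene synthase Fdft1 at 34.4 against 10.5 to 19.7 FPKM and the lanosterol synthase Lss at 9.89 against 4.55 to 6.19 FPKM. In the steps after lanosterol, Cyp51 was at 44.1 against 18.7 to 30.6 FPKM, Nsdhl at 33.9 against 14.2 to 27.4 FPKM and Dhcr7, which completes cholesterol, at 25.3 against 9.54 to 13.3 FPKM. Averaged over the 14 genes, A94 lay at 1.02 relative to the LD mean on the log2 scale, A91 at 0.25, A75 at −0.10 and A115 at −0.44, and the LD livers lay between −0.39 and 0.25.

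The group median of the sterol synthesis genes was 0.03 with 9 of 14 genes higher in ADV livers, and its sign depended on single mice and on scaling. Without A94 the median was −0.13 with 3 of 14 higher, without A115 it was 0.30 with 12 of 14 higher, and with scaling by the median ratio it was −0.07 with 6 of 14 higher. In the same liver of A94 the 6 macrophage markers summed to 380 FPKM, against 72.4 to 107 FPKM in LD livers, and the all-gene mean on the log2 scale lay 0.45 above LD, and their part in the sterol genes was not tested. Within conditions, the deviations of the 14 sterol genes over the 8 livers had a mean pairwise Pearson correlation of 0.695, those of the 13 fatty acid synthesis genes one of 0.416, and the sterol with the fatty acid genes one of 0.34, against 0.155 over all genes tested. In the kidney the same values were 0.0964 for the sterol genes, 0.231 for the fatty acid synthesis genes and 0.188 between them, against 0.144 over all genes, and were 0.787 for the glycerolipid synthesis genes and 0.814 for the regulators. Without the kidney of A115 they were 0.143 for the sterol, 0.12 for the fatty acid, 0.00648 for the glycerolipid synthesis genes and 0.219 for the regulators, against 0.0661 over all genes. These correlations share the libraries and their depth and are a description of at most 8 mice, and their differences were not tested. The liver values were not recomputed without A94, which was the highest liver in 12 of the 14 sterol genes. Fads1 and Cyp46a1, both lower in all ADV livers, had mean correlations of 0.38 and −0.16 with the sterol genes.

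**Figure D3:**
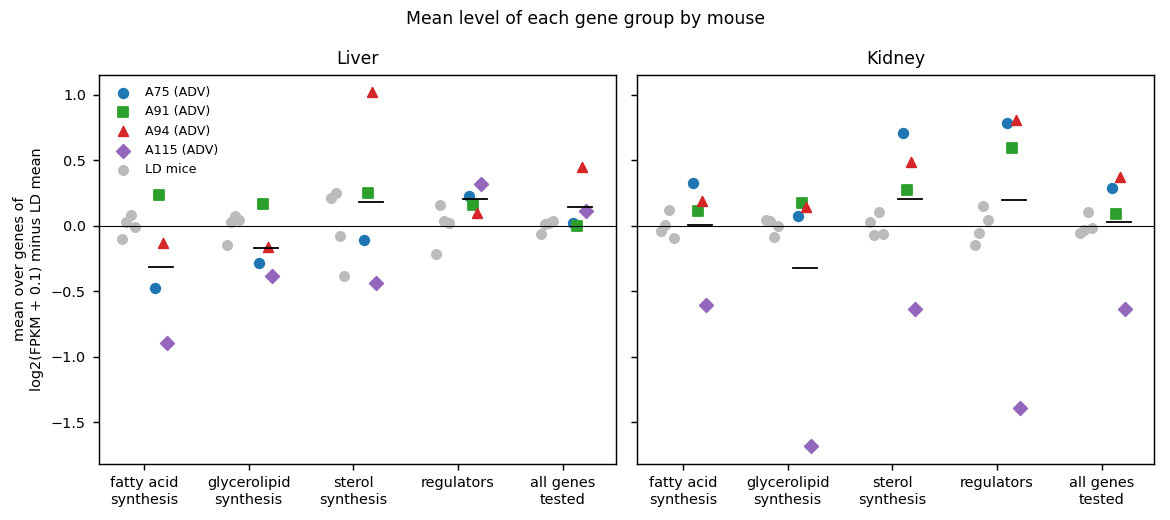
Mean over the genes of a group of log2(FPKM + 0.1) minus the LD mean, for each mouse in liver (left) and kidney (right), with black lines at the ADV means. In the liver A115 and A75 are lowest for fatty acid synthesis (−0.89 and −0.48) and A94 is highest for sterol synthesis (1.02), and in the kidney A115 lies below all other mice in each group.

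The regulators showed no gene with an unadjusted p under 0.05 in the liver. Srebf1 was at 33.8, 40.98, 32.5 and 19.6 FPKM in LD and at 31.5, 53.6, 37.5 and 37.0 FPKM in ADV livers, with a log2 difference of 0.35 (95% interval −0.17 to 0.88). Srebf2 was at 4.86 to 7.08 FPKM in LD and at 7.28, 5.92, 10.2 and 10.9 FPKM in ADV (0.41, 95% interval −0.06 to 0.88). Mlxipl was at 30.1 ± 7.21 and 22.1 ± 4.77 FPKM, with a log2 difference of −0.44 (95% interval −0.91 to 0.03), and Scap at 13.3 ± 0.854 and 12.3 ± 1.56 FPKM, with −0.12 (95% interval −0.37 to 0.13). The 2 Insig genes ordered the ADV livers in different ways. Insig1 was at 151, 99.2, 163 and 74.7 FPKM in A75, A91, A94 and A115 and at 72.0 to 142 FPKM in LD. Insig2, by contrast, was at 64.2, 46.1, 26.3 and 71.6 FPKM and at 21.0 to 51.7 FPKM in LD, so that A94 was highest for Insig1 and lowest of the ADV livers for Insig2. The mean correlation with the sterol synthesis genes within conditions was 0.59 for Insig1 and −0.79 for Insig2, a description over 8 livers.

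Clock genes measured in the same livers differed between the ADV-conditioned mice. Dbp, a clock output gene, was at 2.40, 37.8, 33.7 and 1.33 FPKM in A75, A91, A94 and A115 and at 8.25 to 28.6 FPKM in LD. Arntl, which encodes BMAL1 and peaks at another time of day, was at 5.91, 1.06, 0.723 and 6.72 FPKM and at 0.700 to 3.95 FPKM in LD. The 2 livers with the lowest Dbp, A75 and A115, were also the 2 with the lowest mean of fatty acid synthesis genes, −0.48 and −0.89 on the log2 scale against 0.24 in A91 and −0.13 in A94. The study collected the organs within a window of hours counted from the last light onset, and the time of each mouse is not given in the sources used here. The part of the clock phase and of the sampling time in these levels was not tested. Fibroblast and stellate cell markers, 6 genes, summed to between 113 and 130 FPKM in LD and between 158 and 308 FPKM in ADV livers, without overlap. Most of this sum was from Dcn, with means of 112.2 FPKM in LD and 177.3 FPKM in ADV livers. Dcn and Col1a1 did not overlap between the conditions, whereas Col3a1, Lrat, Des and Pdgfrb did. For Des and Pdgfrb, A91 was below every LD liver. The sum of the 6 hepatocyte markers, most of it from Alb, overlapped between the conditions. Of these 6, 5 had a negative log2 difference, among them Hnf4a with −0.42 (unadjusted p 0.0227 in limma), Tat with −0.39 and Cyp2e1 with −0.35. The 6 adipocyte markers summed to between 13.3 and 15.7 FPKM in LD and between 18.5 and 69.7 FPKM in ADV livers, a sum made up mainly of Fabp4, at 64.7 FPKM in A94, and Cfd. Adipoq, Plin1, Lep and Retn were all at 0 in A94, and Adipoq was at 2.10 FPKM in A75 and at most 0.105 FPKM in every other liver. The part of these cells in the lower values was not tested either.

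Other genes of the same pathways were taken from lists of known enzymes and regulators, and their counts stand beside the 11.8% of all genes with an unadjusted p under 0.05 in the liver, 8.65% higher and 3.13% lower. In the liver the 8 tested of the other sterol synthesis genes had a median of 0.05, and 1 of them had an unadjusted p under 0.05, the sterol isomerase Ebp (log2 difference −0.26, 103.6 to 111 FPKM in LD and 81.5 to 95.5 FPKM in ADV). Of 15 other lipogenic genes 3 had such a p, 2 towards higher and 1 towards lower values. These were Mid1ip1, a partner of Thrsp that activates acetyl-CoA carboxylase, with a log2 difference of 0.88, G6pdx, the entry of the pentose phosphate pathway, with 0.89, and Gpat4, another acyltransferase of glycerol-3-phosphate, with −0.45. Of 11 genes of SREBP and LXR action, 2 had such a p, the site-2 protease Mbtps2 with 0.37 and the factor Usf2 with −0.24. Of 14 lipid droplet genes 3 had such a p, and 10 had a negative log2 difference, with a median of −0.24. G0s2, the inhibitor of adipose triglyceride lipase, was at 155, 184, 108 and 208 FPKM in LD and at 42.1, 92.2, 74.9 and 65.1 FPKM in ADV livers, a log2 difference of −1.27 (SE 0.26, adjusted p = 0.247) without overlap. Fitm2, a protein of droplet budding, had a difference of −0.70 (SE 0.16) without overlap, and Plin3, a droplet coat protein, one of 0.37 without overlap. In the liver, 0 of these other genes passed the adjusted threshold.

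In the kidney of ADV-conditioned mice, 40 of the 41 genes were high enough to be tested, all but Pnpla3, and 0 passed the adjusted threshold in limma or in limma-voom. Over all 14452 genes this share was 0.0% in both, and 3.1% had an unadjusted p under 0.05 in limma and 2.84% in limma-voom. Of the 40 genes, 2 had such a p, Sqle and Insig1, both higher in ADV (background 1.75% higher). Sqle, on chromosome 15 at 59315092-59331193, was at 19.5, 16.3, 24.9 and 19.4 FPKM in L63, L65, L86 and L104 and at 33.7, 29.2, 30.0 and 24.9 FPKM in A75, A91, A94 and A115. The lowest ADV kidney, A115, was level with the highest LD kidney at this rounding and marginally above it, so that the conditions did not overlap, as in 2.8% of all genes, 0.962% with ADV higher and 1.83% with ADV lower. The log2 difference was 0.56 (SE 0.17). The exact permutation test of this gene alone, not adjusted over genes, gave 0.0286, again the smallest value it can give. Insig1 was at 7.29 to 10.4 FPKM in LD and at 14.0, 14.3, 20.1 and 8.40 FPKM in ADV, a log2 difference of 0.65 (SE 0.27), with only A115 inside the LD range. Among other genes of the pathways, Msmo1, a sterol-4-methyl oxidase, was at 30.7, 18.2, 25.6 and 25.4 FPKM in ADV and 12.8 to 19.3 FPKM in LD (log2 difference 0.67), and Mid1ip1 and Acsl5, an acyl-CoA synthetase, had differences of 0.67 and 0.48, each at an unadjusted p under 0.05, as 3.1% of all genes.

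The other kidney genes were pulled apart by A115. Srebf1 was at 4.22 to 6.60 FPKM in LD, at 14.7, 9.64 and 14.6 FPKM in A75, A91 and A94, and at 1.20 FPKM in A115. Srebf2 was at 7.31 to 10.3 FPKM in LD, at 19.5, 14.9 and 18.7 FPKM in these 3 mice and at 2.40 FPKM in A115. Scap was at 9.81 to 12.6 FPKM in LD, 17.7, 16.4 and 18.3 FPKM in the 3 mice and 1.81 FPKM in A115, and Tm7sf2 at 2.88 to 4.37 FPKM, then 6.73, 5.81 and 7.91 FPKM, and 0.142 FPKM. In each of these 4 genes A115 was below and the other ADV kidneys were above every LD kidney. With all 8 mice the log2 differences were 0.52 (SE 0.74) for Srebf1, 0.35 (SE 0.63) for Srebf2, −0.13 (SE 0.70) for Scap and −0.27 (SE 1.06) for Tm7sf2. Lpin1, Fdps and Fdft1, which complete the 5 largest differences in the kidney, had −0.60 (SE 0.32), 0.59 (SE 0.48) and 0.64 (SE 0.33). Without A115 these were −0.30, 1.008 and 0.78, and without A75 Fdps was at 0.23 and Fdft1 at 0.39. Over the groups the medians were 0.03 for fatty acid, −0.34 for glycerolipid and 0.21 for sterol synthesis and 0.23 for the regulators, against −0.02 over all genes.

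Genes that did not show this split were Hmgcs1, at 135 to 178 FPKM in LD and 115.1, 131, 116 and 166 FPKM in ADV kidneys, and Cyp51, Idi1, Sc5d, Nsdhl, Elovl5 and Elovl6. Idi1 was at 19.5 FPKM in A115 and at 6.63 to 9.13 FPKM in all other kidneys. Acaca was at 2.57 ± 0.340 FPKM in LD and 2.499 ± 0.405 FPKM in ADV (SD, n = 4), with a log2 difference of −0.04. Scd1 was at 26.2 ± 6.02 and 27.7 ± 5.47 FPKM, Gpam at 13.7 ± 3.71 and 10.8 ± 2.66 FPKM, and Insig2 at 15.5 ± 1.38 and 16.8 ± 2.27 FPKM. Fasn was at 3.63 to 4.42 FPKM in LD, at 8.85, 5.65 and 5.28 FPKM in A75, A91 and A94 and at 1.03 FPKM in A115. Dgat2 followed the split in A91 and A94, at 69.4 and 64.1 FPKM, but not in A75 at 42.3 FPKM, and was at 8.28 FPKM in A115 and 38.7 to 48.0 FPKM in LD. Mlxipl was at 13.1 to 21.9 FPKM in LD and at 21.5, 19.7, 13.9 and 3.92 FPKM in ADV. Of other fatty acid synthesis genes, levels were 41.1 ± 2.22 and 40.6 ± 10.1 FPKM for Acly, 8.10 ± 1.48 and 8.48 ± 3.99 FPKM for Pklr, 18.5 ± 2.45 and 21.2 ± 6.72 FPKM for Fads1 and 3.15 ± 0.679 and 3.12 ± 1.38 FPKM for Thrsp in LD and ADV kidneys. The log2 differences of these 4 lay between −0.13 and 0.14. Me1 was at 170.5 ± 15.6 and 136 ± 26.25 FPKM (log2 difference −0.34), Scd2 at 21.0 ± 3.64 and 26.7 ± 8.22 FPKM (0.30), Acacb at 2.40 ± 0.400 and 2.99 ± 1.62 FPKM (0.07) and Fads2 at 56.0 ± 5.46 and 54.7 ± 12.02 FPKM (−0.06). Cyp46a1 was at 0.221 to 0.445 FPKM in LD, at 0.350 to 0.436 FPKM in A75, A91 and A94 and listed at 0 in A115.

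**Figure D4:**
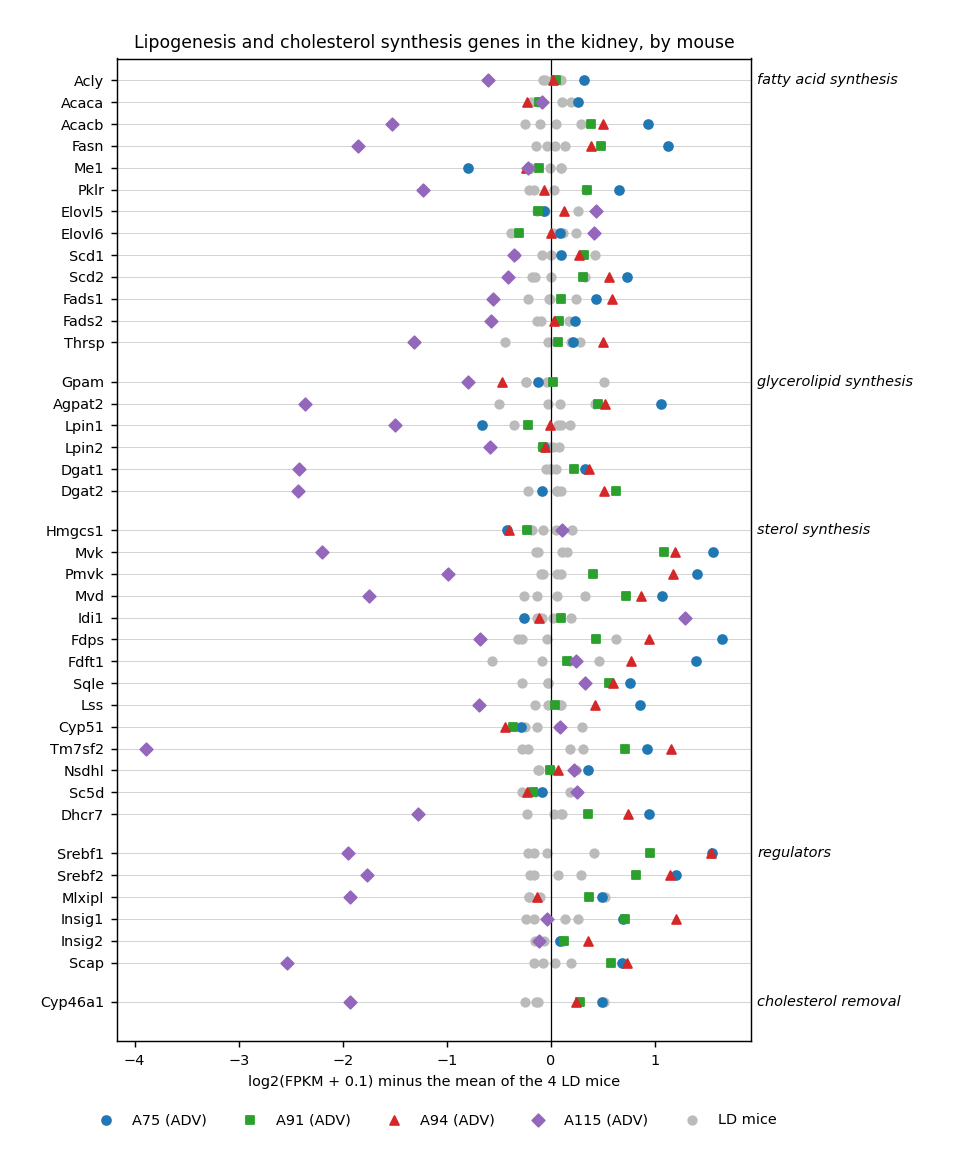
Level of each of the 40 genes tested in the kidney of each mouse, as log2(FPKM + 0.1) minus the mean of the 4 LD-conditioned mice (grey dots LD-conditioned, coloured symbols ADV-conditioned). A115 (purple diamonds) is the lowest of the 8 kidneys in 27 of the 40 genes, and the other ADV-conditioned mice lie to the right of the LD mice for Srebf1, Srebf2, Scap, Mvk, Mvd and Sqle.

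Without A115, 13 of the 40 genes had an adjusted p under 0.05 in limma, all with the higher level in ADV kidneys, against 18.9% of all genes, 16.2% higher and 2.68% lower. They were Srebf1 (log2 difference 1.35, adjusted p = 0.011), Mvk (1.28), Srebf2 (1.06), Pmvk (0.99), Tm7sf2 (0.93), Mvd (0.89), Insig1 (0.87), Dhcr7 (0.68), Scap (0.67), Fasn (0.67), Sqle (0.64), Scd2 (0.53) and Dgat1 (0.31). By group these were 6 of 14 sterol synthesis genes, 4 of 6 regulators, 2 of 13 fatty acid synthesis genes and 1 of 6 glycerolipid synthesis genes, with medians of 0.66, 0.77, 0.23 and 0.12 against 0.20 over all genes. With all 8 mice Scap, Tm7sf2 and Dgat1 had the opposite sign, at −0.13, −0.27 and −0.38. At an unadjusted p under 0.05 there were 21 of the 40 genes without A115, against 37.1% of all genes, and 20 with the median ratio as well, against 36.1%. When the median ratio was used for scaling as well, 12 passed, 10 higher and 2 lower, against 8.06% of all genes higher and 7.92% lower. The 3 ADV kidneys in these fits had a lower mitochondrial share than every LD kidney, and A94 was the one with the high lymphocyte sum. Of the 6 markers of the proximal tubule, 2 also had an adjusted p under 0.05 in limma without A115, Slc34a1 and Slc5a2. The others did not pass, with log2 differences without A115 of −0.69 for Kap, −0.21 for Cubn, −0.12 for Lrp2 and 0.09 for Slc22a6. Slc34a1, a phosphate transporter, was at 801 to 992 FPKM in LD, 1292 to 1553 FPKM in these 3 kidneys and 154 FPKM in A115 (log2 difference without A115 0.63, adjusted p = 0.0202). Slc5a2, a glucose transporter, was at 62.2 to 82.4 FPKM in LD, 113 to 150 FPKM in the 3 and 7.51 FPKM in A115 (0.87, adjusted p = 0.011). The part of these in the 13 genes was not tested.

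These differences in the kidney moved with the GC content of the transcripts. GC content was taken from the GENCODE transcript of the same gene whose length was nearest, for all 40 genes and for 96.3% of the genes tested. Across 13910 genes, the deviation of a kidney from the LD mean correlated with GC content at −0.684 in A115, at 0.366 in A94, at 0.567 in A91 and at 0.578 in A75, and between −0.319 and 0.239 in the LD kidneys. In the livers these correlations were between −0.247 and 0.144. Within the 40 genes the values were 0.665, 0.733, 0.592 and −0.862 for A75, A91, A94 and A115. They are descriptions across genes, which share each library. All 14 of the genes above 55% GC, among them Mvk, Mvd, Scap, Srebf1, Srebf2, Agpat2, Fasn and Tm7sf2, were below the LD mean in A115, with a median of −1.94, and all 14 had a positive log2 difference in the fit without A115, with a median log2 difference of 0.67. Of the 16 genes under 50% GC, such as Hmgcs1, Idi1, Cyp51 and Elovl6, 8 were below the LD mean in A115, and their median log2 difference in the other mice was −0.02.

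**Figure D5:**
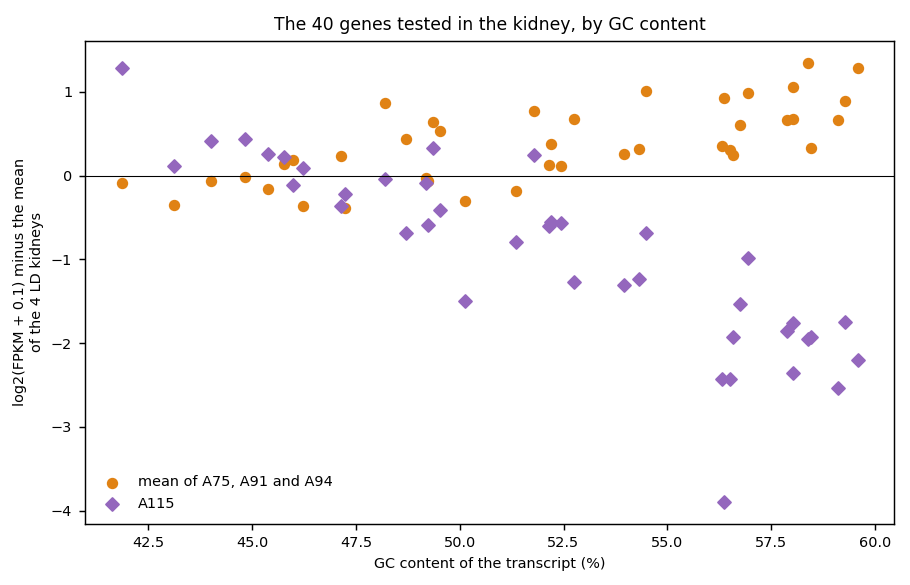
Level in ADV-conditioned kidneys of the 40 genes tested, as log2(FPKM + 0.1) minus the mean of the 4 LD kidneys, against the GC content of the transcript in percent, for A115 (purple diamonds) and for the mean of A75, A91 and A94 (orange dots). With higher GC content A115 lies lower (r = −0.862) and the other 3 mice lie higher, and all 14 genes above 55% GC lie below 0 in A115.

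A correction that removed a smooth curve of GC content from each library left fewer differences in the kidneys without A115. With all 8 kidneys, and in the livers, more of the genes had an unadjusted p under 0.05 than before it. The correction was chosen after the data had been seen. Without A115 and with this correction 0 of 13910 genes had an adjusted p under 0.05 in limma, and 18.8% had an unadjusted p under 0.05. Of the 40 genes 11 had such a p, 10 higher and 1, Cyp51, lower (background 8.92% higher and 9.86% lower). Insig1 then had a log2 difference of 0.82 (SE 0.16) and Srebf1 one of 0.74 (SE 0.15), both with an adjusted p of 0.0915, Sqle one of 0.54 (SE 0.12, adjusted p = 0.105), Mvk one of 0.60 and Srebf2 one of 0.46, while Scap was at 0.01 and Fasn at 0.08. Sqle, at 49.4% GC, and Insig1, at 48.2%, had nearly the same difference with and without the correction. With all 8 mice and the correction, 8 of the 40 genes had an unadjusted p under 0.05, Sqle with 0.59, Insig1 with 0.67, Fdft1 with 0.67, Fdps with 0.61, Pmvk with 0.51, Srebf1 with 0.52 and Srebf2 with 0.35 being higher and Lpin1 with −0.57 lower, against 7.51% of all genes, 4.08% higher and 3.42% lower. In the liver the same correction kept 0 of the 41 genes at an adjusted p under 0.05 and 12, 3 higher and 9 lower, at an unadjusted one (all genes 0.00803% and 13.3%, of which 6.81% higher and 6.53% lower), with Cyp46a1 at −1.29 and Fads2 at −1.02.

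The difference of the ADV effect between the organs was tested as an interaction over all 16 libraries. No gene passed the adjusted threshold (0.0% of 14968 genes in limma), and 3.71% had an unadjusted p under 0.05, 3.01% with a positive and 0.701% with a negative difference of liver minus kidney. Of the 41 genes, 3 had such a p, 1 positive and 2 negative. Hmgcs1 was at 0.996 in the liver and −0.24 in the kidney, a difference of 1.23 (SE 0.39, unadjusted p 0.00622). Fads2 was at −0.95 in the liver and −0.06 in the kidney, a difference of −0.89 (SE 0.30, unadjusted p 0.00996), and Elovl6 at −1.08 and 0.05, a difference of −1.14 (SE 0.43, unadjusted p 0.0187). The adjusted p of each was 0.99996. Without both libraries of A115, 5 of the 41 genes passed, 1 positive and 4 negative, against 2.75% of all genes, 0.541% positive and 2.2% negative. At an unadjusted p under 0.05 there were then 15 of the 41, 1 positive and 14 negative, against 21.3% of all genes, 7.44% positive and 13.9% negative. Hmgcs1 then differed by 1.53 (adjusted p = 0.0445), Fads2 by −0.87 (0.0338), Cyp46a1 by −1.57 (0.0302), Scap by −0.86 (0.0182) and Tm7sf2 by −1.01 (0.0479). Of these, Scap, Cyp46a1 and Tm7sf2 have 59.1%, 58.45% and 56.4% GC, Fads2 52.45% and Hmgcs1 43.1%. The log2 differences without A115 of Scap and Tm7sf2 were 0.67 and 0.93 in the kidney and −0.19 and −0.08 in the liver, and that of Cyp46a1 in the kidney was 0.34 in place of −0.23, a value that depends on the 0.1 added to a level of 0 in A115 (−0.84 in limma-voom). Elovl6 then differed by −0.73. The part of GC content in these differences was not tested.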

How the data were processed

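Poly(A)-selected RNA of 8 mice was sequenced in liver and kidney, 16 libraries in all. The authors aligned trimmed reads to mm10 with STAR (2.5.4b in the submitters' processing notes), removed reads of low mapping quality and counted fragments with HOMER over exons of the known canonical genes of UCSC. Deposited values are FPKM per gene. Depth came from the totals in the file headers, and in all libraries 100% of the values were whole multiples of 0.5 fragment, within 0.02 read. These values are not counts, so the count test of the study was not run, and limma-voom on the recovered fragments served as an alternative.

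ADV and LD were compared in each organ with limma 3.58.1 (R 4.3.3, lmFit and eBayes with a variance trend) on log2(FPKM + 0.1) for genes whose mean was above 0.5 in fragments scaled to one library size (CPM), with Benjamini-Hochberg adjustment over all genes tested. Liver and kidney, and the difference of the ADV effect between them, were compared in 1 fit of 16 libraries. It held the genes above this mean in either organ. Single genes were also tested with an exact two-sided permutation test. The scripts, including the correction for GC content (a lowess curve per library, added after the data had been seen), were tested on simulated data. Other scripts used Python 3.11.15, numpy 2.4.6, pandas 2.3.3, scipy 1.17.1 and matplotlib 3.10.9. Alternatives were other pseudocounts and filters, scaling by the median ratio, quantile normalization, totals without mitochondrial genes, limma-voom, each mouse left out in turn and the mouse as a block. Liver and kidney of a number came from the same animal, which pairs them, and the correlation of their deviations lay between −0.02 and 0.55 over 8 mice and was above 0.1 in 5.

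The 41 genes, the lists of other pathway genes and the cell type markers were chosen with earlier results of these data known. Full values were given for genes with an unadjusted p under 0.05 or without overlap, for the 5 with the largest change in each organ, for regulators and rate-limiting steps, for the 5 largest differences between organs and for paralog pairs, and of the other lists for genes with an unadjusted p under 0.05. Promoters came from RefSeq, matched by symbol. Intervals cover the spread between mice. No fold was taken against a group listed at 0 in all its libraries, and single values of 0 entered the fits through the added 0.1.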

Additional observations from a re-analysis of the deposited data

Results flagged for a closer look

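In groups of 4 mice, a value was singled out when its gap to the nearest other mouse, divided by the range of the group, exceeded Dixon's critical value at the 95% level. This held for 15 of 164 groups, where about 8.2 (1 in 20) are found by chance, and 5 of them were the kidney of A115 and 3 the liver of A94.

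In the kidney of A115, Scap was at 1.81 FPKM (other ADV kidneys 16.4 to 18.3), Dgat1 at 1.79 (11.8 to 12.97), Lpin2 at 7.85 (11.2 to 11.4) and Pnpla3 at 0 (0.120 to 0.122), while Idi1 was at 19.5 FPKM (6.63 to 8.53). Idi1, with 41.9% GC, has the lowest GC content of the 41 genes, and Scap, with 59.1%, one of the highest. The part of GC content in these values was not tested beyond the correction given above.

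In the liver of A94, Hmgcs1 was at 89 FPKM (other ADV livers 30.1 to 38.9), Mvd at 15.3 FPKM (4.05 to 5.24) and Sqle at 52.4 FPKM (15.2 to 19.2), which are steps of the same pathway.

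Other values stood alone. Me1 was at 59.4 FPKM in the liver of A91 (other ADV livers 21.9 to 27.8), and Tm7sf2 at 81.7 FPKM in that of A75 (60.4 to 63.8). Among LD mice, Fads1 was at 149 FPKM in the liver of L86 (119 to 121), and Elovl5 at 30.6 and Dgat2 at 38.7 FPKM in its kidney (23.4 to 24.6 and 46.7 to 48.0). In the kidney of L104, Mlxipl was at 21.9 FPKM (13.1 to 14.2) and Cyp46a1 at 0.445 FPKM (0.221 to 0.250).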

How the results depend on the processing

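Of the single genes recomputed under each alternative, none that was called with all mice and the first scaling changed its sign. Of the 13 genes called in the kidney without A115, Scap, Tm7sf2 and Dgat1 had the opposite sign with all mice (−0.13, −0.27 and −0.38). In the liver, 0 of the 41 genes passed the adjusted threshold with all mice, and 0 to 1 when a mouse was left out, the 1 being Cyp46a1 without A91. At an unadjusted p, 10 did with all mice, against 11.8% of all genes, and 6 to 15 when a mouse was left out. The counts of 6 and 15 have no background, because the shares of all genes in these fits are not given here. In the kidney, the adjusted count of 0 became 13 without A115 (range 0 to 13 over the mice left out) and 12 without A115 and with scaling by the median ratio. The unadjusted count of 2 there was 1 with both organs in 1 fit, 1 to 21 with a mouse left out, 20 without A115 and with the median ratio, 8 with the GC correction and 11 with this correction and without A115. Of all genes 37.1% had such a p without A115, where the 21 were found, and 36.1% with the median ratio as well. With the GC correction the share was 7.51% with all mice and 18.8% without A115. For the difference between organs, 0 to 5 genes passed the adjusted threshold with a mouse left out, against 0 with all mice. The unadjusted one was passed by 2 to 15, against 3 with all mice, with 5 without A94 and 15 without A115. Of all genes 21.3% passed the unadjusted one without A115, and the share without A94 is not given here. The median of the sterol synthesis genes in the kidney was 0.21, and −0.011 to 0.66 with a mouse left out. For single genes, 554 values kept their side of the threshold, 7 passed it where the main value did not, and 10 lost the call, all in the contrasts between the organs, 4 each for Mvd in LD and Lss in ADV mice and 2 for Gpam in LD mice. With the mouse as a replicate block, 31 genes differed between the organs in LD- and in ADV-conditioned mice, against 31 and 30 without it, and 4 in place of 3 had an unadjusted p under 0.05 for the difference of the ADV effect, the added one being Lpin2. The block changed no other count by over 1.5 times. Comparisons of ADV with LD within an organ have different mice in each condition and were not paired. The cause of these shifts was not tested. At 4 mice a condition and this depth, the widest intervals, such as that of Scd1 in the liver, leave changes of over 1 on the log2 scale in either direction undetected.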
